A study of Mus musculus with 12 samples.

Results

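The genes described here encode the proteins of the cytosolic ribosome. They were taken as every gene whose symbol is Rpl or Rps followed by a number, with or without a closing a, x, y or l, or Rplp0, Rplp1 or Rplp2. Of 10949 genes measured by a probe set with a single gene symbol, 35 met this rule, 20 of the large subunit and 15 of the small subunit. Where a gene had several probe sets, the 1 with the highest mean over all arrays stood for it. Expression was measured on 12 arrays of mouse ovary, all from mice of 23 weeks at diestrus, a phase of the estrous cycle. The 6 control arrays came from Pgrcre/+ mice without a tumor. The other arrays came from Pgrcre/+PgrBLsL/+ mice, 3 with a tumor of stage I and 3 with a tumor of stage II. All 12 mice thus carried the Pgrcre allele, in which Cre recombinase is driven from the progesterone receptor locus, and no group had the PgrBLsL allele without a tumor, so allele and tumor cannot be told apart. The labels number the arrays within a group as bioreplicates.

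A ribosome is built from a small subunit, which reads the messenger RNA, and a large subunit, which joins the amino acids. Each protein is made for nearly every ribosome, so most of these genes are expressed at high and similar levels in all cell types, and their messages share a pyrimidine tract at the very start, the terminal oligopyrimidine (TOP) motif, through which the growth regulator mTORC1 controls their translation. Several ribosomal proteins also act outside the ribosome, and a few have close copies with a narrower pattern of expression. Expression arrays measure the amount of message and not its translation.

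The large subunit genes measured were Rpl4, Rpl6, Rpl7, Rpl7a, Rpl8, Rpl10a, Rpl11, Rpl13a, Rpl14, Rpl19, Rpl22, Rpl27, Rpl27a, Rpl35, Rpl37a, Rpl39, Rpl39l, Rpl41, Rplp0 and Rplp2. Those of the small subunit were Rps2, Rps4x, Rps6, Rps7, Rps9, Rps10, Rps15, Rps18, Rps20, Rps24, Rps25, Rps26, Rps27l, Rps28 and Rps29. The TOP motif lies at the start of the message. For 9 of these genes, the windows below show the 20 bases before and the 20 bases from the annotated start. They come from the RefSeq promoter table of build GRCm38.p6 and are written 5′ to 3′ on the strand of the gene, with the longest unbroken run of C and T in capitals. The first 6 are the members whose annotated start is a C followed by at least 4 further pyrimidines, and the last 3, with both listed starts of Rpl22, are the members that passed the test in a comparison between groups.
Rps6, chr4:86857348-86857387, minus strand: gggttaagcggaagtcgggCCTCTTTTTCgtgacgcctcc
Rplp2, chr7:141447631-141447670, plus strand: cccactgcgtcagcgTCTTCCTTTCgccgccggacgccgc
Rps10, chr17:27635225-27635264, minus strand: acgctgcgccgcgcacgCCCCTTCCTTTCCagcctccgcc
Rps18, chr17:33955646-33955685, minus strand: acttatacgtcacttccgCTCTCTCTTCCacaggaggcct
Rpl35, chr2:39005112-39005151, minus strand: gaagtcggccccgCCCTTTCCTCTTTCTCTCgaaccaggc
Rpl14, chr9:120571497-120571536, plus strand: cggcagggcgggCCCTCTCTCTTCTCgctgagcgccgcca
Rpl11, chr4:136053374-136053413, minus strand: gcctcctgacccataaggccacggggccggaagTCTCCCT
Rpl39l, chr16:10170208-10170247, plus strand: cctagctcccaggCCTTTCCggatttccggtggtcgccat
Rpl22, chr4:152324416-152324455, plus strand: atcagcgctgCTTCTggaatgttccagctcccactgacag
Rpl22, chr4:152325706-152325745, plus strand: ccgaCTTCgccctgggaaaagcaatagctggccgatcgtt

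The table held a window for 31 of the 35 members, with 36 listed starts. A C at the annotated start followed by at least 4 pyrimidines stood at 6 of the 31 genes (19.4%), against 3.02% of the 8765 tested genes with a window. The longest run of C and T within the 40 bases had a median of 7 bases over the members' starts, and it reached 8 bases or more at 47.2% of them, against 16.3% over the starts of all tested genes. The letters CCGGAAG, a core of the binding motif of ETS factors, stood on either strand of the 300-base promoter window in 17 of the 31 members (54.8%) and in 15.8% of the tested genes. TATAA on the sense strand, between 40 and 10 bases before the start, was found in 3 of the 31 (9.68%) and in 5.05% of the tested genes. These are matches of letters at annotated starts, which can lie some bases from the start used in the ovary.

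Most members differed little between arrays. The SD over the 6 control arrays had a median of 0.053 log2 units over the 35 members, against 0.118 over all genes. Within stage I it was 0.038 against 0.099, and within stage II 0.048 against 0.119. The mean log2 level of 25 members lay between 12.2 and 14.1, near the top of the deposited range, which ended at 14.44, and that of the other 10 lay between 4.24 and 11.9. In all 186 genes had a mean above 12, a level chosen after the values were seen. Among these bright genes the control SD had a median of 0.046 for the 25 members and 0.081 for the 161 other genes. The 10 members below 12 varied more, with a median SD of 0.148 in controls and 0.135 in stage II. Whether the values were compressed near the top of the range was not tested.

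Whole arrays moved the members together by small amounts. The median deviation of the 35 members from their control means was -0.06, 0.02, 0.01, -0.02, 0.02 and 0.04 log2 units in controls 1 to 6. It was 0.05, 0.01 and 0.01 in the stage I arrays and -0.04, 0.01 and -0.04 in the stage II arrays. The stage I and stage II medians therefore lay within the range of the controls, except that stage I array 1 lay just above it. In control 1, 31 of the 35 members were below their control mean, and in control 4, 23 were. In stage II arrays 1, 2 and 3 the numbers were 30, 17 and 22.

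**Figure D1:**
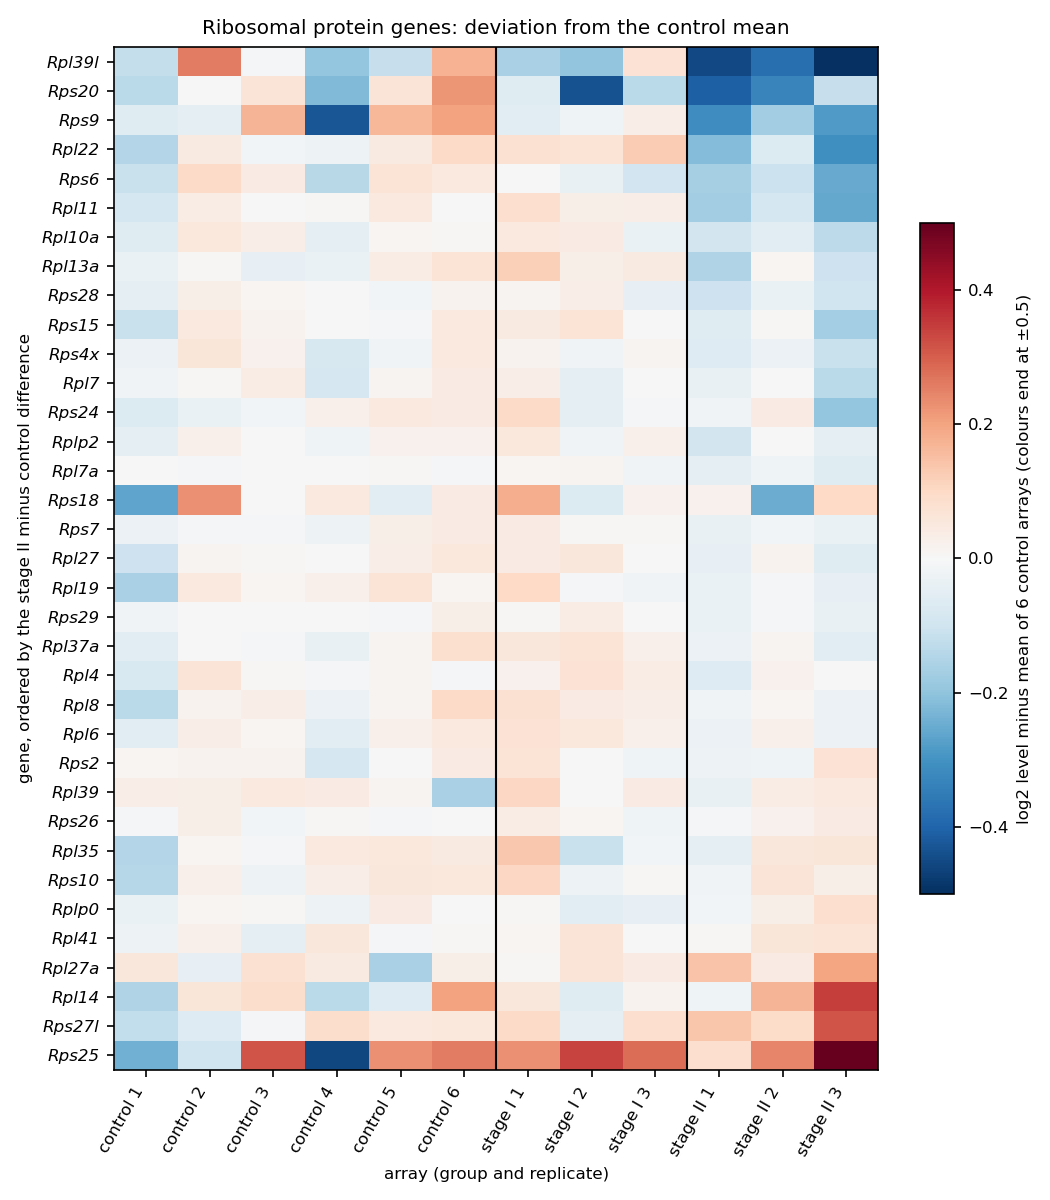
Deviation of each of the 35 ribosomal protein genes from its control mean (colour, log2 units, ending at 0.5 in either direction) on each of the 12 arrays, with genes ordered by the stage II difference. Most cells are pale, and controls 1 and 4 and stage II arrays 1 and 3 are mostly below the control mean. The strong colours lie in the rows of a few dim genes such as Rpl39l, Rps25, Rps20 and Rps9.

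Over all genes, array medians lay between 7.09 and 7.15, and no 2 arrays held identical values. On the second principal component of the 10914 other genes, controls 1 and 4 stood apart at 17.4 and 19.4, against -7.37 to -0.132 for the other controls. Ovarian marker genes were measured in every group and changed in stage II. By the test described below, 30 of 75 measured markers were lower and 11 higher, against 11.2% and 9.81% of all genes. The lower ones were all 8 oocyte, all 5 granulosa, all 7 fibroblast, 6 of 10 smooth muscle and 3 of 4 theca markers. The remaining theca marker also lay below 0. All 5 macrophage markers were higher. Single calls in the luteal, lymphocyte, skeletal muscle, oviduct and proliferation lists were higher, and the adipocyte list gave 1 in each direction. The mean level of the granulosa list ran from 11.2 to 11.8 over the controls, from 11.4 to 11.8 with stage I and from 9.89 to 11.02 in stage II. That of the macrophage list ran from 8.64 to 8.997, from 8.96 to 9.76 and from 9.60 to 9.91 in the same order. In stage I 0 of the 75 measured markers passed, against 0.192% of all genes, so this count does not show an unchanged make-up. All 5 macrophage markers lay above 0 there (median 0.46 log2 units), and all 10 smooth muscle markers below 0 (median -0.20). The part of these marker shifts in the results on ribosomal protein genes was not tested. In a whole ovary, fewer cells of a type and less RNA per cell cannot be told apart.

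In stage I ovaries no ribosomal protein gene passed the test against control, and for most of them the interval of the difference was narrow. By limma, fitted to all genes with Benjamini-Hochberg adjustment and a threshold of 0.05, 0 of the 35 members passed, against 0.192% of all genes. At an unadjusted p under 0.05, 0 members passed, against 6.38% of all genes. The median difference was 0.02 log2 units, against -0.00 over all genes, with 29 members above 0 and 6 below. Of all 10949 genes, 5400 lay above 0 and 5549 below. For 32 of the 35 members (91.4%) the 95% interval of the difference lay within 0.3 log2 units of 0, as it did for 62.9% of all genes. The exceptions were Rpl39l, Rps20 and Rps25. For the 25 members with a mean level above 12 the bounds ran from -0.14 to 0.24.

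The largest stage I difference was that of Rps25, a small subunit protein used by some viral internal ribosome entry sites. Its log2 level was 9.08, 9.22, 9.64, 8.87, 9.55 and 9.58 in the controls and 9.55, 9.66 and 9.60 in stage I. Controls 1, 2 and 4 were low, the other 3 lay among the stage I values, and the groups overlapped. The difference of 0.28 did not pass (limma adjusted p = 0.88). Rps25 had the largest control SD of all members, 0.31, and without controls 1 and 4 the stage I difference was 0.11. Rps20, a protein of the small subunit's head, measured 5.88, 6.01, 6.08, 5.79, 6.08 and 6.24 in controls and 5.95, 5.58 and 5.88 in stage I. Only stage I array 2 lay below every control, and the difference of -0.21 did not pass (limma adjusted p = 0.85).

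In stage II ovaries 2 ribosomal protein genes were lower than in controls, Rpl39l by 1.51-fold and Rpl11 by 1.13-fold, and no member was higher by the test. These 2 of 35 are 5.71% of the members, while 21% of all genes passed, 11.2% lower and 9.81% higher. The members' differences had a median of -0.03 log2 units, against -0.01 over all genes, and with quantile normalization the medians were -0.073 and -0.041. They ranged from -0.59 to 0.28, with 24 members below 0 and 11 above. Of all 10949 genes, 5831 lay below 0 and 5118 above. The median size of a difference, whatever its sign, was 0.046 for members and 0.127 for all genes. The large subunit genes had a median of -0.03 and the small subunit genes of -0.04.

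At an unadjusted p under 0.05, 5 members were lower and 1 higher, against 19.1% of all genes lower and 14.4% higher. The 95% interval lay within 0.3 log2 units of 0 for 27 of 35 members (77.1%) and for 43.9% of all genes. The exceptions were Rpl39l, Rps20, Rps9, Rpl22, Rps6, Rpl14, Rps27l and Rps25. Of the 10 members with a mean level below 12, 3 (30%) lay within it, and 40% had an unadjusted p under 0.05, against 33.6% of all genes. For the 25 members with a mean level above 12 the bounds ran from -0.34, in Rpl22, to 0.17. Of those 25, 4% passed, which is Rpl11 alone, against 31.2% of all 186 genes of that level and 35.4% of the 161 that are not members. The arrays of stage II and control did not overlap for 4 members. Rpl39l, Rpl11 and Rpl7a were lower without overlap, as were 12% of all genes, and Rps27l was higher, as were 9.97% of all genes. The Rpl7a difference was -0.04, with a 95% interval of -0.14 to 0.05, and did not pass (limma adjusted p = 0.52). Its control SD, 0.0055, was the lowest of all genes.

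**Figure D2:**
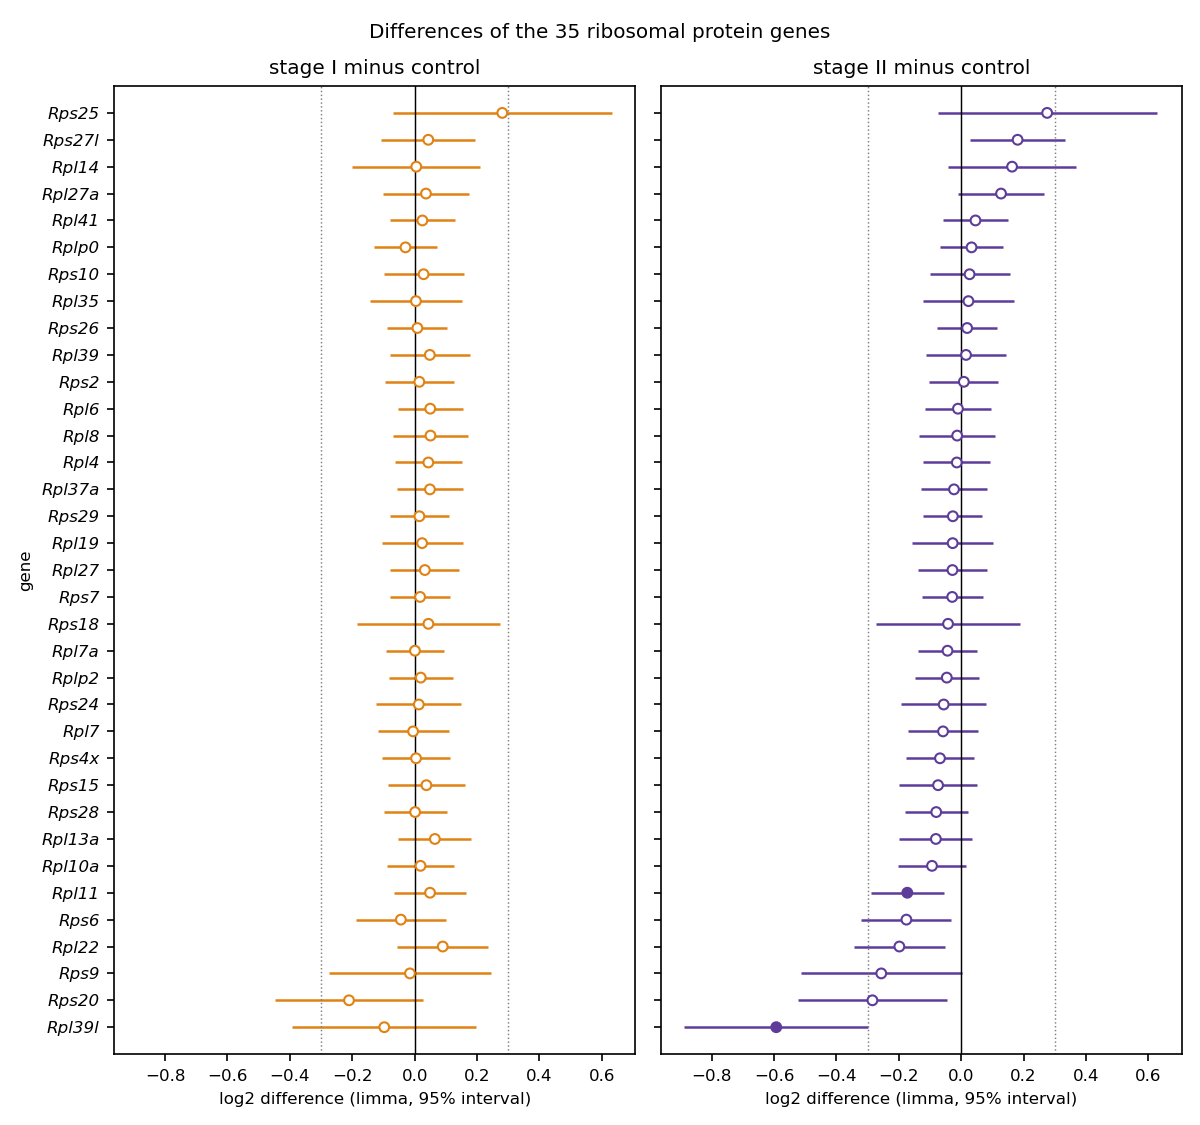
Difference from control of the 35 members in stage I and in stage II (log2 units, point, with the 95% interval as a bar), with dotted lines at 0.3 in either direction and filled points where the adjusted p was under 0.05. Most intervals lie between the dotted lines, and the filled points are Rpl39l and Rpl11 in stage II.

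Rpl39l is a close copy of Rpl39, a short protein lining the exit tunnel of the large subunit, and in mice it is best known from male germ cells. Its log2 level was 6.73, 7.10, 6.84, 6.65, 6.73 and 7.02 on the control arrays, 6.68, 6.65 and 6.91 with stage I and 6.39, 6.47 and 5.89 with stage II. All 3 stage II arrays lay below every other array, with array 3 the lowest, while stage I overlapped the controls. The stage II difference was -0.59 ± 0.135 (SE), with a 95% interval of -0.89 to -0.30 and a limma adjusted p of 0.0093. Without stage II array 3 it was -0.41 and no longer passed (adjusted p = 0.053). The mean level over all arrays was 6.67 for Rpl39l and 5.80 for Rpl39, both below the lowest array median of 7.09. Whether such dim probe sets follow their messages was not tested. Rpl39 itself measured 5.82, 5.81, 5.83, 5.82, 5.80 and 5.62 in controls and 5.75, 5.82 and 5.83 in stage II. Its stage II difference was 0.02, with an interval of -0.11 to 0.14, and the groups overlapped.

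Rpl11 is a large subunit protein that, with Rpl5 and a small ribosomal RNA, binds and inhibits Mdm2, the ligase that marks p53 for degradation. Its log2 level was 13.27, 13.40, 13.36, 13.36, 13.41 and 13.36 on the control arrays, 13.44, 13.39 and 13.39 with stage I and 13.19, 13.27 and 13.10 with stage II. The stage II arrays were the lowest 3, although stage II array 2 and control 1 were equal to 2 decimals. The stage II difference from control was -0.17 ± 0.054 (SE), with a 95% interval of -0.29 to -0.06 (limma adjusted p = 0.039). This call ended without any of control arrays 2, 3, 5 or 6, stage I arrays 2 or 3, or stage II arrays 1 or 3, with an adjusted p of up to 0.18.

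Rpl22, an RNA-binding protein of the large subunit that ribosomes can do without, had its lowest values in stage II. Its log2 level was 12.05, 12.24, 12.19, 12.17, 12.24 and 12.29 on the control arrays, 12.27, 12.27 and 12.32 with stage I and 11.98, 12.13 and 11.89 with stage II. Stage II arrays 1 and 3 were below every other array, and stage II array 2 lay above control 1. The difference from control, -0.20 ± 0.067 (SE), did not pass (limma adjusted p = 0.055). It passed with quantile normalization (adjusted p = 0.031) and without stage II array 2 (adjusted p = 0.023).

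Between the stages, Rpl11 and Rpl22 fell from stage I to stage II. These 2 of 35 members stand against 12.5% of all genes, 5.97% lower, and no member rose. Rpl22 was 1.22-fold lower in stage II than in stage I (log2 -0.29 ± 0.078 SE, 95% interval -0.46 to -0.12, limma adjusted p = 0.032), and its 3 stage II arrays lay below its 3 stage I arrays. Rpl11 was 1.17-fold lower (log2 -0.22 ± 0.062 SE, 95% interval -0.36 to -0.09, limma adjusted p = 0.037), again with no overlap. The Rpl22 call ended without any single stage I array and without stage II array 1 or 3 (adjusted p up to 0.12). That of Rpl11 ended without the same 5 arrays and without control 3, 5 or 6 (adjusted p up to 0.13). Both ended when the 2 stages were fitted alone, where 0 members passed.

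The median difference between the stages was -0.06 over the members and -0.01 over all genes, with 28 members below 0. Of all 10949 genes, 5656 lay below 0. Above a level of 12, 21 of the 25 members and 104 of the 161 other genes did. The stage II arrays lay below the stage I arrays without overlap for 14 of the 35 members, while 17.1% of all genes were lower without overlap. With a mean level above 12, this held for 11 of 25 members and for 54 of the 161 other genes. The median difference at that level was -0.06 for the members and -0.09 for the other genes. At an unadjusted p under 0.05, 4 members were lower and 0 higher, against 14.9% of all genes lower. Rpl39l, at -0.50, did not pass (limma adjusted p = 0.058), and without stage II array 2 it did (adjusted p = 0.034). Rpl13a, a large subunit protein that also joins a complex silencing inflammatory messages, measured 13.72, 13.63 and 13.65 in stage I and 13.45, 13.61 and 13.50 in stage II. Its stage II values were all lower, and the difference of -0.15 did not pass (limma adjusted p = 0.15).

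**Figure D3:**
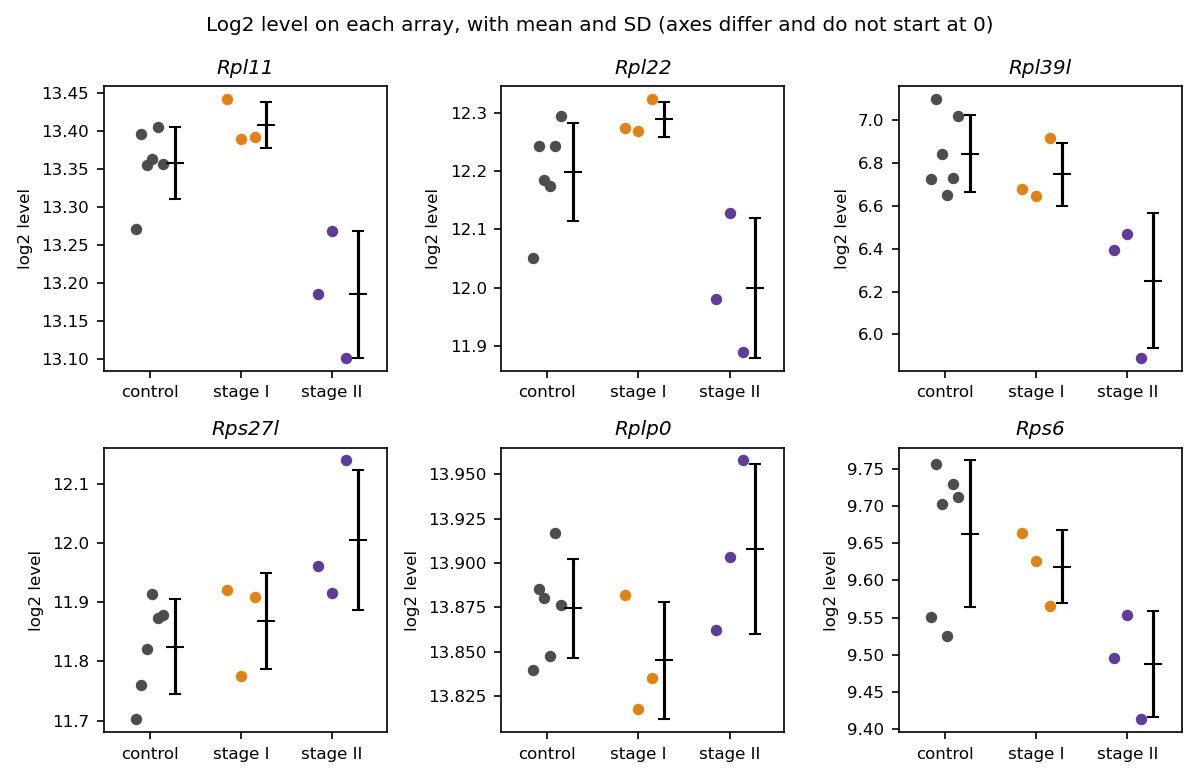
Log2 level of Rpl11, Rpl22, Rpl39l, Rps27l, Rplp0 and Rps6 on each array, with the group mean and SD, for control (6 arrays), stage I (3) and stage II (3). Rpl11 and Rpl39l are lowest in stage II. Rps27l in stage II lies above every control but overlaps stage I, and Rplp0 spans 13.82 to 13.96 over all groups.

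The mean of both stages against control, which sets the allele with its tumor against neither, gave 0 members past the threshold, against 6.76% of all genes, and 2 members lower at an unadjusted p under 0.05, against 11.5% of all genes. The median was -0.00. The smallest adjusted p by limma was 0.087, for Rpl39l at -0.35, and the next largest differences were those of Rps25 (0.28) and Rps20 (-0.25, adjusted p = 0.12).

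The stalk of the large subunit, which calls in the elongation factors, was represented by Rplp0 and Rplp2. Rplp0, often used as a reference gene in PCR, measured 13.84, 13.89, 13.88, 13.85, 13.92 and 13.88 on the control arrays, 13.88, 13.82 and 13.84 with stage I and 13.86, 13.90 and 13.96 with stage II. Its difference was -0.03 in stage I, with a 95% interval of -0.13 to 0.07, and 0.03 in stage II, with an interval of -0.07 to 0.14. The groups of Rplp0 overlapped. Rplp2 ran from 13.85 to 13.93 in controls and from 13.81 to 13.90 in stage II, and differed by -0.05.

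Rps27l, a copy of Rps27 and a target gene of p53, was the member whose stage II arrays lay above every control. It measured 11.70, 11.76, 11.82, 11.91, 11.87 and 11.88 on the control arrays, 11.92, 11.77 and 11.91 with stage I and 11.96, 11.92 and 12.14 with stage II. The stage II values were above the highest control by little in arrays 1 and 2. The difference of 0.18, or 1.13-fold, with an interval of 0.03 to 0.33, did not pass (limma adjusted p = 0.086).

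In the small subunit, Rps6, the substrate of the S6 kinases below mTORC1, measured 9.55, 9.76, 9.70, 9.53, 9.73 and 9.71 on the control arrays, 9.66, 9.63 and 9.57 with stage I and 9.50, 9.55 and 9.41 with stage II. Controls 1 and 4 lay near the stage II values. The stage II difference of -0.18 did not pass (limma adjusted p = 0.081). A brighter probe set, which names Rps6 together with Rps6-ps4 and so is no member, had a mean level of 14.2. Its stage II difference was -0.13 and did not pass in a limma fit of all probe sets (adjusted p = 0.091). Rps20 measured 5.61, 5.68 and 5.90 in stage II and differed from control by -0.28 (adjusted p = 0.086). Rps9, a protein near the site where the message enters the small subunit, measured 7.57, 7.59, 7.80, 7.20, 7.80 and 7.83 in controls and 7.32, 7.46 and 7.35 in stage II. Control 4 was the lowest of all these Rps9 values, and the difference of -0.26 did not pass (adjusted p = 0.15). Without controls 1 and 4, left out together after the data were seen because they stood apart on the second component of the other genes, 6 members were lower in stage II and 0 higher, with Rpl22 (adjusted p = 0.023), Rps6 (0.012), Rps9 (0.0050) and Rps20 (0.027) joining Rpl39l and Rpl11. Leaving out the control arrays with the lowest Rps6 and Rps9 levels widens such a difference by itself. Rps25 did not pass in stage II either (difference 0.28, adjusted p = 0.26), and without those controls it was 0.10.

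The 3 members with the highest levels differed from control by at most 0.05 in either stage. Rpl41, the shortest ribosomal protein, had a mean of 14.07 ± 0.04 (SD, n = 6) over the controls, 14.09 ± 0.04 (n = 3) over the stage I arrays and 14.11 ± 0.03 (n = 3) over the stage II arrays. Rps29 measured 14.06 ± 0.02, 14.08 ± 0.02 and 14.03 ± 0.02 in the same order, and Rpl37a 14.03 ± 0.05, 14.08 ± 0.02 and 14.01 ± 0.03. Their stage II differences were 0.05, -0.03 and -0.02. The X-linked Rps4x measured 13.77 ± 0.05, 13.78 ± 0.02 and 13.71 ± 0.04, a stage II difference of -0.07. At the other end, the probe set of Rpl27a measured 4.20 ± 0.09, 4.24 ± 0.03 and 4.33 ± 0.08. Another probe set, which names Rpl27a together with 4 predicted genes and so is no member, had a mean level of 13.7 and a stage II difference of -0.02.

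**Figure D4:**
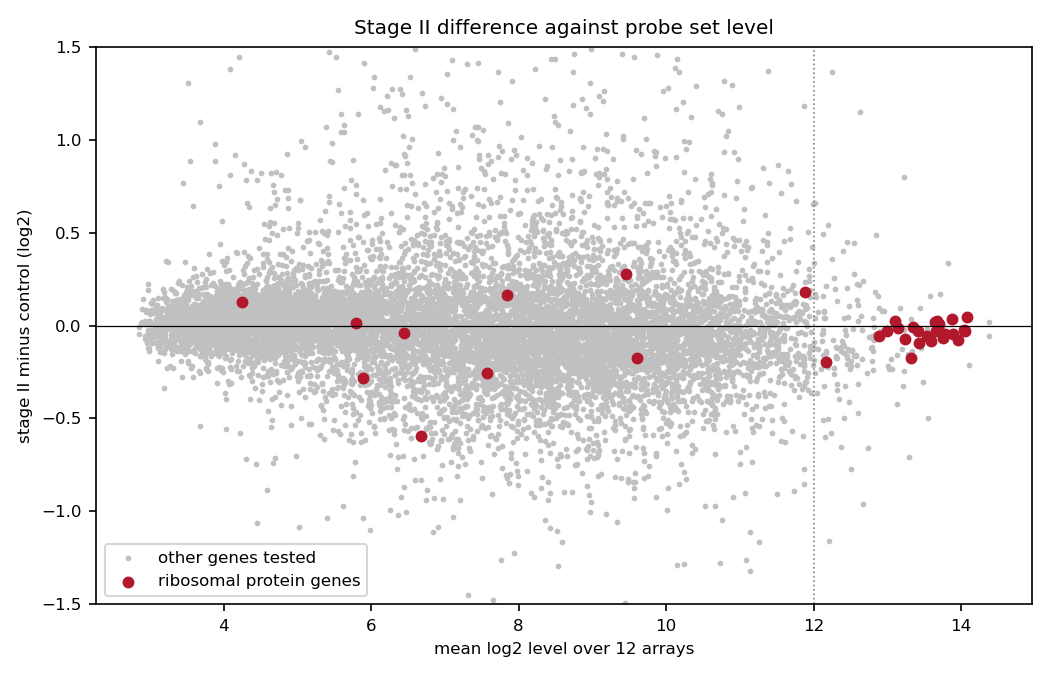
Stage II minus control (log2 units) against the mean level over all 12 arrays (log2 units) for the 35 members (red) and the other genes (grey), with a dotted line at a level of 12; 163 other genes lie outside the plotted range of change. The 25 members to the right of the line form a flat band near 0, while the other genes of that level spread more widely.

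Several probe sets of 1 gene gave the same sign. This held in stage II for Rpl37a, Rpl7, Rps15, Rps18 and Rps4x, the 5 members with more than 1 single-symbol probe set, and 0 of them passed. A further 34 probe sets, outside the members because they name several genes, carry 26 ribosomal protein symbols, 21 of them of genes that are not members, and 28 of the 34 lay above 12. In a fit of all 16376 probe sets, added after the data were seen, their stage II median was -0.03, with 26 below 0, and 1 was higher and 0 lower, against 19.4% of all probe sets. The higher one, at 0.40, names Rpl13a together with Flt3l, which encodes no ribosomal protein, and had a mean level of 5.01. It was also higher in stage II than in stage I, by 0.36. The member probe set of Rpl13a, at a mean level of 13.6, had the opposite sign, with -0.08 against control and -0.15 against stage I. In stage I the median of the 34 probe sets was 0.02 and 0 passed.

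Other genes of the same process were read from 9 lists of translation, ribosome assembly and their regulation. Of 170 measured genes 28 passed in stage II, 11 higher and 17 lower, where 21% of all genes did, 9.81% higher and 11.2% lower. These shares belong beside the stage II counts of each list below. In stage I 1 of the 170 passed, against 0.192% of all genes. Without stage II array 3 the stage II count was 16. The 4 ribosomal proteins outside the symbol rule, Fau, Rpl22l1, Rpl7l1 and Rpsa, gave 0 calls and a median of 0.01. The 8 elongation factors and other TOP messages gave 0 calls and a median of -0.04, with Eef1a1 at 0.02 and Eef2 at 0.04, and Eef1a2, the isoform of muscle and neuron, was at 0.04.

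Among 21 initiation factors 3 rose and 4 fell, against 9.81% and 11.2% of all genes. Eif6, which keeps the large subunit from joining too early, had levels of 9.67, 10.04, 9.90, 9.82, 9.87 and 10.06 in controls and 10.33, 10.41 and 10.91 in stage II. All 3 stage II arrays were above every control, and the rise of 0.66, or 1.58-fold, passed (limma adjusted p = 0.0027). Eif1a, which helps scanning for the start codon, rose by 0.57 (adjusted p = 0.0038) and Eif2s2, a subunit of the factor that brings the first transfer RNA, by 0.42 (adjusted p = 0.0094). The initiation factors that fell were Eif4h, Eif3i, Eif3l and Eif4g3.

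Of 46 ribosome assembly genes 36 lay below 0 in stage II, as did 5831 of all 10949 genes. Their median was -0.11, against -0.01 over all genes. By the test 4 fell and 1 rose, smaller shares than the 11.2% and 9.81% of all genes. Noc2l, which escorts the large subunit precursor out of the nucleolus, fell by 0.55 (adjusted p = 0.0035), Gnl2 fell by 0.42 (0.011) and Ebna1bp2 fell by 0.31 (0.013). The other calls were Fbl, the methyltransferase of ribosomal RNA, which fell, and Sbds, which releases Eif6 from the large subunit and rose. The Gnl2 and Ebna1bp2 calls ended without stage II array 3 (0.075 and 0.072), and that of Ebna1bp2 also without stage II array 1 (0.0503). Of 14 RNA polymerase I genes 1 rose, Cd3eap by 0.28 (0.024), a call that also ended without stage II array 3 (0.14), and the median was -0.12.

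Among 52 mitochondrial ribosomal proteins 1 rose and 7 fell, against 9.81% and 11.2% of all genes, with a median of -0.01. Mrpl37 fell by 0.38 (limma adjusted p = 0.0017), Mrpl47 fell by 0.33 (0.0054) and Mrpl51 rose by 0.30 (0.026). The Mrpl51 call ended without any of control arrays 2, 3, 5 or 6, or stage II arrays 1 or 3 (adjusted p up to 0.13). Of 16 mTORC1 and TOP regulators 2 rose and 1 fell: Eif4ebp1, the repressor of cap-dependent initiation, rose by 0.61 (0.0022), Rheb, the activator of mTORC1, rose by 0.23 (0.0075), and Pdcd4 fell by 0.51 (0.018). The Pdcd4 call ended without stage II array 3 (0.11). Of 8 genes of the Mdm2 and p53 arm 3 rose and 1 fell. Mdm2, the partner of Rpl11, measured 9.67, 9.59, 9.66, 9.58, 9.67 and 9.66 on the control arrays, 10.08, 9.84 and 9.84 with stage I and 10.78, 10.59 and 11.39 with stage II. Its levels did not overlap between control and stage II, a rise of 1.28, or 2.43-fold (adjusted p = 4.4e-05). Ccng1, a p53 target, rose by 0.95 (1.2e-06), Pmaip1 by 6.27, and Mdm4 fell by 0.49 (0.0091). Pmaip1 was the gene that passed in stage I.

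**Figure D5:**
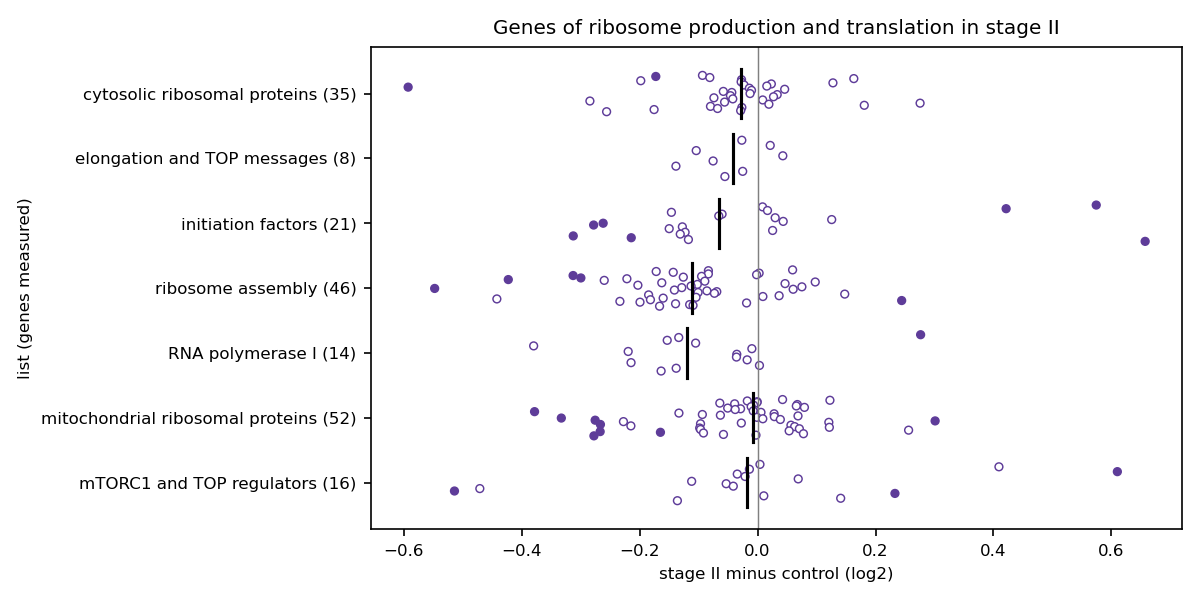
Stage II minus control (log2 units) for each measured gene of the ribosomal protein members and of related lists, with the median as a bar. The members run from -0.59 to 0.28 around their median of -0.03, initiation factors from -0.31 to 0.66 and mTORC1 and TOP regulators from -0.51 to 0.61. The lists of the Mdm2 and p53 arm, of ribosomal proteins outside the symbol rule and of Eef1a2 are not drawn.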

How the data were processed

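The deposited values, 1 per probe set and array, are on a log2 scale (2.69 to 14.44, judged from the values). How the authors summarised and normalized the arrays is not given in the sources used here. RNA was extracted with Trizol and purified on columns, per the labels' protocols. Detection calls were not used, so no probe set has a background limit. The 427 probe sets with several symbols and the 1275 with none, of 16376, were left out of the gene-level fit.

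One mean per group was fitted with limma 3.58.1 in R 4.3.3 (9 residual and 3.13 prior degrees of freedom) over all 12 arrays, with Benjamini-Hochberg adjustment over 10949 genes and a threshold of 0.05. P-values measure the spread between the labelled bioreplicates. The script was tested on simulated data. Members and lists were chosen with earlier results of these data known, so counts describe them and no set was tested. Named members are those called, the largest differences where none was, copies and their parent genes, stalk proteins, the highest and lowest levels, members with known other roles and those of largest control SD. From each related list up to 3 called genes of largest change are given with values. Rpl7a, Rpl14, Rpl22l1, Eef1a1, Eef2, Eif4h, Eif3i, Eif3l, Eif4g3, Fbl, Sbds and Mdm4 were named after their values were seen. Alternatives were other normalization, centring, filters, probe set choices, arrays, weights, variance prior and a replicate block. Figures used matplotlib 3.10.9 in Python 3.11.15.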

Additional observations from a re-analysis of the deposited data

Results flagged for a closer look

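Of 17 named members and the members' median deviation, 18 values examined over the 6 controls, 3 members had a control array far from the others, where chance flags about 1 in 20. Rpl11 was lowest in control 1 (13.27, with the nearest control at 13.36), Rpl39 was lowest in control 6 (5.62, nearest 5.80), and Rps29 was highest in control 6 (14.09, nearest 14.06). The stage II minus stage I difference, which tests whether the stages' differences from the same controls differ, passed for Rpl11 (-0.22) and Rpl22 (-0.29).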

How the results depend on the processing

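The stage II median of the members against control, -0.03, was -0.073 with quantile normalization, and without single arrays it ran from -0.04 to -0.02. The count of members past the threshold in stage II against control, 2, became 4 with quantile normalization, 4 with array medians centred, 6 with array weights, 6 without controls 1 and 4, 1 with the compared groups fitted alone and 0 with a replicate block. Every call under these settings was lower. Without single arrays the count ran from 0, without stage II array 3, to 5, without control 4. It was 1 without control 2, 3, 5 or 6, stage I array 2 or 3, or stage II array 1. For stage II against stage I, 2 became 0 with the compared groups alone and 0 with a replicate block, and ran from 0 to 3 without single arrays. For both stages against control, 0 became 1 with array weights and 2 without controls 1 and 4. The other settings for members gave counts within 1.5 times the main count, and stage I against control gave 0 throughout. Over all genes, stage II calls split into 1074 higher and 1228 lower, 986 and 1634 with quantile normalization, and 982 and 1509 with centring. For the related lists in stage II against control, 28 became 52 with array weights and 11 with a replicate block, and ran from 16 to 35 without single arrays. For stage II against stage I, 17 became 3 with the groups alone, 35 with array weights and 6 with a replicate block, and ran from 4 to 18. For both stages against control, 7 became 1, 16 and 2 in that order, and ran from 4 to 10. For stage I, 1 became 0 with a replicate block and ran from 1 to 1. The replicate numbers name different mice. Deviations of same-numbered arrays correlated at -0.13 to 0.20 over 9 pairs, and 4 of 9 arrays correlated best with an array of their own number, so the block rests on a shared number only. With the replicate block, the stage II calls of Rpl11 (adjusted p = 0.24), Rpl39l (0.058), Eif2s2 (0.071), Noc2l (0.063), Ebna1bp2 (0.061), Rheb (0.13), Mrpl37 (0.053) and Mdm4 (0.065) ended, as did those of Rpl11 (0.12) and Rpl22 (0.088) against stage I. No sign of a called value reversed. The causes of these changes were not tested. Scanner signals were not used, so signal over background is unknown, and 3 arrays per stage limit the precision.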
